A study of Mus musculus with 768 samples.

Results

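Vascular cancer-associated fibroblast (vCAF)-like cells were split by whether they carried reads of *Casq2*, the gene for the calcium-storage protein calsequestrin 2. Of 768 wells sorted from 2 mammary tumors, 717 held at least 10000 reads outside the ERCC spike-ins and at least 1000 genes, and 496 of these were vCAF-like. A cell was vCAF-like when its mean log2(RPKM + 1) over *Rgs5*, *Higd1b*, *Kcnj8*, *Rgs4*, *Abcc9* and *Gja4* (the score V) was at least 4 and above the mean over *Dcn*, *Lum*, *Mfap5*, *Olfml3*, *Smoc2* and *Serpinf1* (the score M). Cells with at least 5 *Casq2* reads, 47 in tumor 1 and 51 in tumor 2, were called *Casq2*-positive. Cells with 0 reads, 209 and 172, were called *Casq2*-negative, and the 5 and 12 cells with 1 to 4 reads entered neither class. *Casq2*, V and M therefore chose the classes, and their values are given as a description without a test.

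Calsequestrin 2 is a low-affinity, high-capacity calcium-binding protein of the sarcoplasmic reticulum, best known from heart muscle. In contractile cells, pumps of the SERCA family fill this store, ryanodine and inositol trisphosphate receptors empty it, and the released calcium acts through calmodulin and myosin light chain kinase on actin and myosin. Mural cells, the pericytes and smooth muscle cells that wrap vessels, use this machinery to set vessel tone.

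Both tumors came from FVB/N-Tg(MMTVPyVT)634Mul/J mice at 14 weeks of age, in which the mammary tumor virus promoter drives the polyoma middle T oncogene, so both classes share strain, transgene, age and sort. Cells had been sorted as EpCAM-, CD45-, CD31- and NG2-, and each tumor filled 1 plate of wells, so tumor and plate cannot be told apart. The labels give no treatment, and no cells from tissue without a tumor were among the samples used here. Kept wells had 10281 to 838772 reads in tumor 1 and 11175 to 1190516 in tumor 2. Whether the tumors came from separate mice was not given in the sources used here, so p-values cover these 2 tumors only.

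*Casq2* lies on chromosome 3 at 102086415 to 102146514 (GRCm38.p6, the assembly of mm10). The 250 bases before its RefSeq start (chr3:102086165-102086414, plus strand) are printed because this is the gene that splits the cells, with a match to the MEF2 consensus in capitals.

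Casq2 promoter: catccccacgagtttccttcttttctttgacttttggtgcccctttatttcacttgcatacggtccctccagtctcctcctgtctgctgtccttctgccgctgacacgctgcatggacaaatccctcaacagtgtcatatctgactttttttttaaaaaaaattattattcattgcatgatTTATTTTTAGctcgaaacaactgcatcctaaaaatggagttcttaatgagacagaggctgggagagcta

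The match, 69 to 60 bases before the start, was the only one to MEF2 on either strand, and 2.92% of 32851 RefSeq promoters of the same table held one in the window searched. The E-box letters CANNTG occurred 2 times (66.2% of promoters held one), whereas the CArG box and TGGGAA were not found in this window (1.47% and 21.6% of promoters). No searched motif overlapped the MEF2 match in capitals.

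*Casq2* was read in a minority of vCAF-like cells. The *Casq2*-positive share was 18% in tumor 1 (exact 95% binomial interval 13.5 to 23.2%) and 21.7% in tumor 2 (16.6 to 27.5%), with overlapping intervals. These intervals cover the counting of cells within a tumor only, and cells of 1 tumor are not replicates. In the other kept wells 1 of 110 (0.909%) and 1 of 111 (0.901%) passed the same count. With at least 1 read as the limit the shares were 19.9% and 26.8% of vCAF-like cells, against 2.73% and 3.6% of the other kept wells, at median depths of 202729 and 191893 against 254847 and 227204 reads. After thinning each cell to 58000 reads, the vCAF-like shares were 19.2% and 26.2%. Few cells therefore lay near the limit: the 2 highest values outside it were 1 and 1 reads in tumor 1 and 4 and 4 in tumor 2, and the 2 lowest inside it were 5 and 7, and 18 and 19.

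Among *Casq2*-positive cells the reads had a median of 77 (lowest 5, highest 1331) in tumor 1 and 66 (18 to 426) in tumor 2. The corresponding median levels were 150 and 118 RPKM. The cell with 1331 reads held 22.6% of all *Casq2* reads of its class in tumor 1, and the top cell of tumor 2 held 8.47%. At the median depth of a *Casq2*-negative cell, a count of 0 allowed up to 15.2 and 16.9 CPM (reads of a gene scaled to the library's total, in the usual unit), below the median of 430 and 351 CPM in positive cells. For the shallowest negative cells a count of 0 allowed 127 and 268 CPM, and 41 of 47 and 31 of 51 positive cells lay above this. These limits cover counting error only, since reads without molecular identifiers are not independent molecules.

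**Figure D1:**
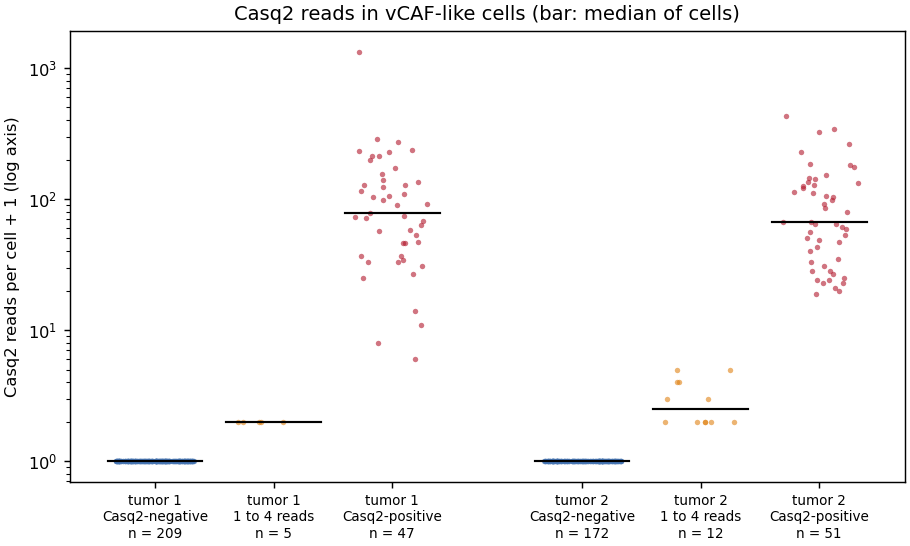
*Casq2* reads per vCAF-like cell plus 1 on a log axis, by tumor and class, each point 1 cell and each bar the median of the cells. Positive cells reached 1331 reads in tumor 1 and 426 in tumor 2, and the cells with 1 to 4 reads numbered 5 and 12.

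The sort markers were checked in both classes. *Pecam1* and *Cdh5* of endothelial cells had no read in any compared cell of either class, and *Ptprc* of leukocytes had none in positive cells. *Epcam* was read in 4.26% and 13.7% of positive and in 2.87% and 6.98% of negative cells of tumors 1 and 2. *Cspg4*, which encodes the NG2 used to exclude cells, was read in 97.9% and 92.2% of positive cells and in 81.8% and 90.1% of negative cells of tumors 1 and 2. Smooth muscle actin *Acta2* was read in 100.0% and 96.1% of positive and 98.1% and 93.6% of negative cells.

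Depth moved with the classes. The median was 220463 reads in positive and 197326 in negative cells of tumor 1, and 223765 and 177382 in tumor 2. Median genes detected were 4332 against 4007 and 4684 against 4085, and the median share of ERCC reads was 12.9% against 14.8% and 11.1% against 12.9%. Cells thinned to 58000 reads are given below beside the genes they bear on.

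The vascular and matrix scores that defined the cells also moved with *Casq2* as a description. Median V was 9.39 in positive and 9.01 in negative cells of tumor 1 and 9.74 and 9.23 in tumor 2, and median M was 0.68 against 1.16 and 0.78 against 0.99. Among the 6 vascular genes, *Gja4*, a gap junction protein of vessels, had 693 CPM in positive and 484 in negative cells of tumor 1, and 819 and 505 in tumor 2. *Rgs5*, a regulator of G protein signalling and a mural marker, had 16721 against 11322 and 11482 against 10513 CPM. *Kcnj8*, a subunit of the ATP-sensitive potassium channel, had 1694 against 1957 in tumor 1 and 2409 against 2058 in tumor 2, so its direction differed between the tumors. *Rgs4* (1961 against 2200, then 3950 against 2452) and *Abcc9* (1919 against 2044, then 2948 against 2666) did the same, and *Higd1b* had 1123 against 957 and 1330 against 1028. All 6 matrix genes had lower summed CPM in positive cells of each tumor, but single cells carried much of this: 1 negative cell a tumor held 43.1% and 46% of the class's *Lum* reads and 57.9% and 70% of its *Mfap5* reads. In tumor 2 *Dcn* was read in 37.3% of positive against 34.9% of negative cells and *Olfml3* in 47.1% against 44.8%, and the mean *Serpinf1* level was 146 against 139.5 RPKM. The proteoglycan gene *Dcn* had 1.78 against 21.6 and 1.99 against 10.2 CPM, *Lum* 1.96 against 24.2 and 0.957 against 5.65, and *Serpinf1* 33.8 against 190 and 188 against 270.

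**Figure D2:**
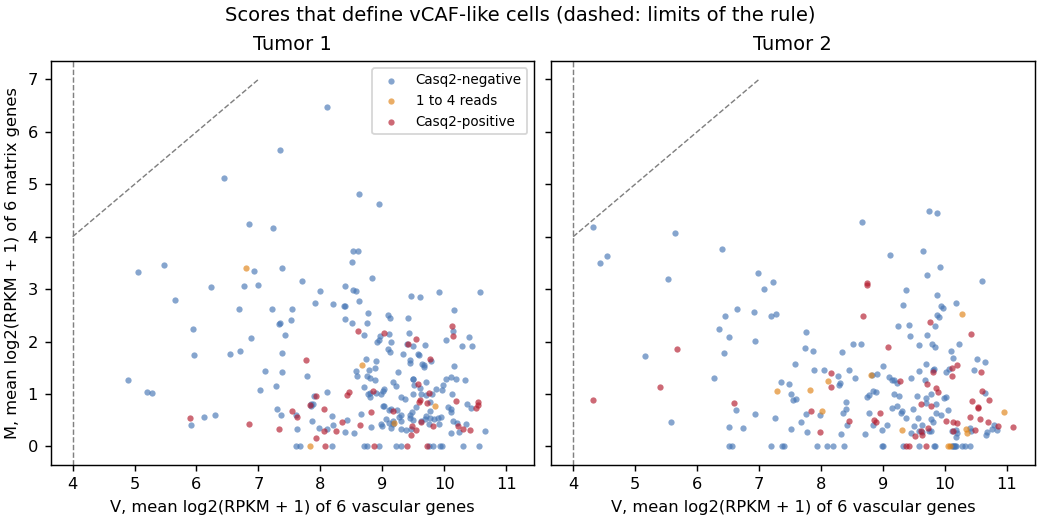
V against M (mean log2(RPKM + 1)) of each vCAF-like cell in tumor 1 (left) and tumor 2 (right), colored by class, with dashed lines for the limits of the rule. Positive cells lie among the negative ones, with median V of 9.39 and 9.74.

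To ask which other genes moved with *Casq2*, counts were summed per tumor and class into 4 libraries and compared by edgeR's quasi-likelihood test with the tumor as a block. No gene of 11180 tested passed a Benjamini-Hochberg adjusted p of 0.05 (0.0% called), and the lowest adjusted p was 0.485. At an unadjusted p of 0.05, 246 genes were higher in positive cells (2.2%) and 366 lower (3.27%), 5.47% in all. In the same direction in each tumor alone, 2835 genes (25.4%) were higher and 3074 (27.5%) lower, and across these genes, which are not independent replicates, the log2 fold changes of the tumors correlated with r = 0.12. Other tools made calls. DESeq2's Wald test called 34 higher and 70 lower (0.304% and 0.626%), and limma on mean log2(RPKM + 1) of the cells 108 and 15 (0.966% and 0.134%). EdgeR on cells thinned to 58000 reads called 8 and 12 (0.0716% and 0.107%), and limma on thinned cells, an alternative added after the data were seen, 38 and 13 (0.34% and 0.116%). The direction of these calls depended on the tool.

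**Figure D3:**
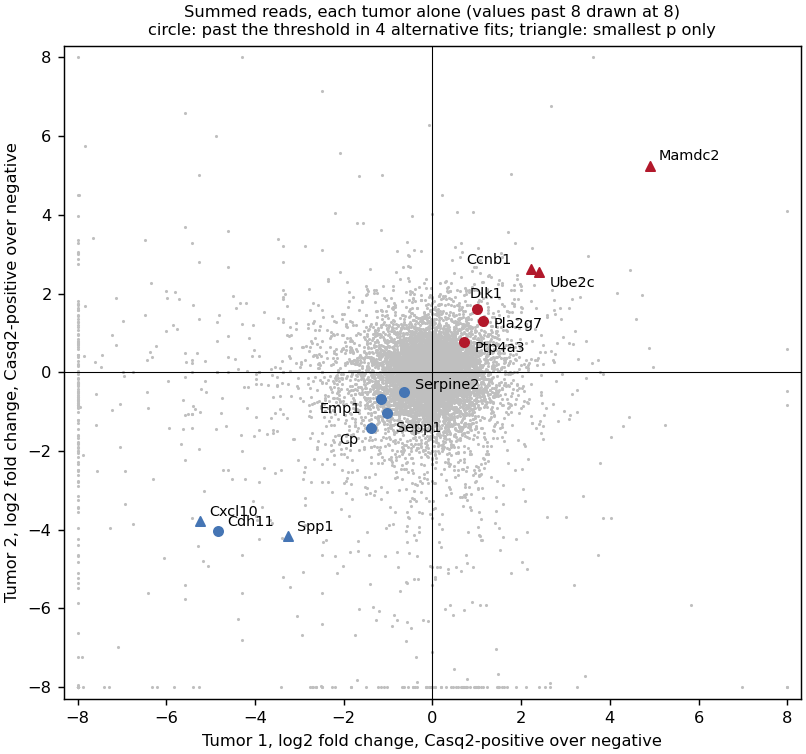
Log2 fold change of summed reads, *Casq2*-positive over *Casq2*-negative, in tumor 1 (horizontal) and tumor 2 (vertical) for 11180 genes (grey), with the described genes of smallest p or past the threshold in 4 alternative fits in color. Most genes scatter around 0 (r = 0.12), and none of the colored genes passed the edgeR test of both tumors.

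The 5 genes of smallest p in each direction did not pass that test, and single cells carried several of them. *Ube2c*, a ubiquitin-conjugating enzyme of mitosis, had 90.2 CPM in positive and 17.1 in negative cells of tumor 1 and 168 and 29 in tumor 2. The log2 difference was 2.47 ± 0.26 (SE, n = 2 tumors; edgeR adjusted p = 0.601). In tumors 1 and 2 a single cell held 49.7% and 97.4% of the reads of the positive class. Without cycling cells, which a list that holds *Ube2c* defines, the fitted value was -7.49. *Ccnb1*, cyclin B1, had 46.1 against 9.81 and 92.4 against 15.1 CPM, with 41.2% and 92% from 1 positive cell. *Mamdc2*, which encodes a secreted proteoglycan, had 43.8 against 1.46 and 7.10 against 0.181 CPM, and was read in 8.51% and 5.88% of positive cells. DESeq2 and edgeR on thinned cells called *Mamdc2*, but a single cell held 48.6% and 59.6% of its positive-class reads in tumors 1 and 2. It averaged 12.2 and 2.01 RPKM in positive against 0.338 and 0.0421 RPKM in negative cells. It therefore passed the filter of a mean of 1 RPKM only through positive cells, which favors this direction.

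Among the genes lower in positive cells, *Spp1*, the gene for osteopontin, had 13.6 CPM in positive and 131 in negative cells of tumor 1 and 27.3 and 491 in tumor 2 (-3.73 ± 0.30, SE; edgeR adjusted p = 0.485). It was read in 51.1% of positive against 53.1% of negative cells and in 70.6% against 74.4%, and after thinning in 29.8% against 27.8% and 32% against 50%. DESeq2 and edgeR on thinned cells called it, and neither limma fit did (-0.69, and -0.88 on thinned cells). It was the 1 gene called when ERCC totals served as library size or when cycling cells were left out. A single negative cell held 26.5% of that class's *Spp1* reads in tumor 1 and 23.1% in tumor 2. *Cxcl10*, an interferon-induced chemokine, had 0.28 against 10.7 and 5.02 against 69.2 CPM, with 88.2% and 99.9% of the negative-class reads from 1 cell. *Cxcl10*, *Ube2c* and *Ccnb1* were called by DESeq2 and by none of the other alternatives.

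Across all 4 alternatives that made several calls, 9 genes passed the threshold, 3 higher and 6 lower, and those described here were named after their values were seen. The 4 alternatives reuse the same cells, 1 of them was added after the data were seen, and none of the 9 genes passed the main edgeR test. Higher in positive cells were *Pla2g7*, *Ptp4a3* and *Dlk1*, and the lower ones included *Serpine2*, *Cp*, *Cdh11*, *Emp1* and *Sepp1*.

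*Pla2g7*, a secreted phospholipase that cleaves platelet-activating factor, had 326 CPM in positive and 149 in negative cells of tumor 1 and 524 and 214 in tumor 2 (1.21 ± 0.16, SE; edgeR adjusted p = 0.759). *Ptp4a3*, a phosphatase of the PRL family, had 1666 against 1019 and 1498 against 873 CPM (0.74 ± 0.11). *Dlk1*, a membrane protein related to Notch ligands, had 194 against 96.1 and 245 against 80.7 CPM (1.31 ± 0.23). In each of these both positive libraries lay above both negative ones. The size depended on the tool: limma gave 2.09, 1.39 and 1.59 for *Pla2g7*, *Ptp4a3* and *Dlk1*, and limma on thinned cells 2.32, 1.39 and 2.14.

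*Serpine2*, an inhibitor of serine proteases, was read in every compared cell, with 5861 CPM in positive and 9149 in negative cells of tumor 1 and 5820 and 8291 in tumor 2 (-0.58 ± 0.08). *Cdh11*, the cadherin of mesenchymal cells, had 1.87 against 53.3 and 4.47 against 73.5 CPM (-4.41 ± 0.45, but -0.73 in limma and -1.16 in limma on thinned cells). It was read in 34% of positive against 41.6% of negative cells of tumor 1 and in 33.3% against 37.2% of tumor 2, and after thinning in 10.6% against 24.2% and 8% against 24.4%. *Cp*, which encodes ceruloplasmin, had 77.9 against 202 and 73.4 against 196 CPM (-1.40 ± 0.20). *Emp1* and *Sepp1*, the gene for a selenium carrier, differed by -0.92 ± 0.17 and -1.03 ± 0.14. In *Emp1* the positive library of tumor 2 (548 CPM) and the negative one of tumor 1 (553 CPM) were nearly level.

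The ryanodine receptors and triadin, the partners of calsequestrin in the store, were sparsely read, whereas *Calm2*, *Calr* and *Atp2a2* were read in 469, 467 and 455 of the compared cells. Of 37 genes of the sarcoplasmic reticulum calcium list 27 were tested, and 1 was higher and 0 were lower at an unadjusted p of 0.05, where 2.2% of all genes were higher and 3.27% lower. *Casq1*, the skeletal muscle paralog, was that gene, with 10.1 against 2.96 and 17.1 against 0.514 CPM, and it was read in 9 of the compared cells, with all positive-class reads of tumor 1 and 85.1% of tumor 2 in 1 cell each. The median log2 fold change was 0.07, beside -0.03 over all genes tested. It was 0.23 with ERCC totals as library size, 0.17 in limma and -0.011 without cells with reads of 2 epithelial genes. The other 10 members did not pass the filter on low values. The ryanodine receptors *Ryr1*, *Ryr2* and *Ryr3* were read in 6, 2 and 1 of the compared cells, and *Trdn*, the gene for triadin, which links calsequestrin to them, in 0. Of the inositol trisphosphate receptors, *Itpr1* had 95.7 CPM in positive and 113 in negative cells of tumor 1 and 118 and 135 in tumor 2. *Atp2a2*, the SERCA pump, had 364 against 234 and 290 against 246 CPM (0.44 ± 0.18; edgeR unadjusted p = 0.056), named after its values were seen. The highest members, the calmodulin gene *Calm2* (0.19 ± 0.13) and *Calr* (-0.03 ± 0.13), did not pass.

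Of 34 smooth muscle contractile genes 33 were tested, with a median of 0.12 and 2 higher and 1 lower at an unadjusted p of 0.05 (2.2% and 3.27% of all genes). *Acta2* had 5886 CPM in positive and 4899 in negative cells of tumor 1 but 3989 and 4035 in tumor 2, so that the tumors differed in direction (0.12 ± 0.10). Its reads may overlap those of other actin genes. *Myl9*, the regulatory myosin light chain, had 2424 against 1727 and 953 against 1322 CPM (0.01 ± 0.24), so its direction differed between the tumors. The higher ones, named after their values were seen, were the muscle LIM protein gene *Pdlim3*, with 86.6 against 23.8 and 81.4 against 36.8 CPM (1.5 ± 0.32; edgeR adjusted p = 0.866), and the actin-binding *Nexn* (1.03 ± 0.35), and the lower one was *Synpo2* (-0.67 ± 0.24). The list median was 0.26 in tumor 1 alone and -0.02 in tumor 2 alone.

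The medians of the channel and receptor lists changed sign between the tumors, at 0.18 and 0.13 in tumor 1 and -0.30 and -0.20 in tumor 2. Single genes did not share a direction between the tumors in 8 of 21 and 13 of 27 cases, beside 5271 of 11180 genes in all. The 21 tested channel genes had a median of 0.04 (0 higher, 3 lower at an unadjusted p of 0.05, beside 2.2% and 3.27% of all genes). The lower ones included *Cacnb3* and *Rem1*, named after their values were seen, at -0.81 ± 0.30 and -0.60 ± 0.22, while the chloride channel *Ano1* and cation channel *Trpc6* differed by 0.25 ± 0.14 and 0.21 ± 0.14. The 27 receptor and cGMP genes also had a median of 0.04 (0 higher, 2 lower, *F2r* and *Rgs2*). The thrombin receptor *F2r* had 536 against 1241 and 780 against 1002 CPM (-0.79 ± 0.22, but 0.24 in limma and 0.26 in limma on thinned cells), and after thinning it was read in 72.3% of positive against 73.7% of negative cells of tumor 1 and in 88% against 70.6% of tumor 2. *Rgs2*, a regulator of G protein signalling, had 10.8 against 35 and 7.5 against 24 CPM. *Gucy1a3*, a subunit of the nitric oxide receptor, differed by 0.13 ± 0.12. The 29 transcription factors had a median of -0.0018 (2 higher, *Mef2c* and *Ebf1*, and 0 lower), with *Epas1* at 0.16 ± 0.15 and *Prrx1* at -0.01 ± 0.12. *Mef2c*, which encodes a factor that binds MEF2 sites, was named after its values were seen and had 445 against 290 and 433 against 306 CPM (0.56 ± 0.15; edgeR adjusted p = 0.873).

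Pericyte genes had 5 of 15 tested members higher and 0 lower at an unadjusted p of 0.05 (2.2% and 3.27% of all genes), with a median of 0.16 (0.33 with ERCC totals as library size, 0.48 in limma, 0.10 on thinned cells, and 0.11 both without cycling cells and without cells with reads of 2 epithelial genes). The members of highest level, *Mcam* (-0.15 ± 0.10) and *Pdgfrb* (-0.13 ± 0.09), were not among them. The 5 were *Art3*, *Cox4i2*, *Ndufa4l2*, *Ebf1* and *Cspg4*, named after their values were seen. *Art3*, an ADP-ribosyltransferase family member, had 771 against 413 and 642 against 433 CPM (0.73 ± 0.15). *Cox4i2*, an oxygen-responsive cytochrome oxidase subunit, had 382 against 242 and 341 against 221 CPM (0.64 ± 0.15), and it is among the genes most like *Casq2* below. Limma (1.90) and limma on thinned cells (1.74) called *Cox4i2*, whereas DESeq2 (0.65) and edgeR on thinned cells (0.63) did not. Of 12 tested Notch genes 1 was higher: *Nrarp*, a Notch target that limits the pathway, had 236 against 93.7 and 125 against 61.7 CPM (1.18 ± 0.21; edgeR adjusted p = 0.778), again named after its values were seen. *Heyl* (-0.28 ± 0.13) and *Notch3* (0.12 ± 0.12) did not pass.

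Mural matrix and basement membrane genes had 1 of 33 higher and 9 lower at an unadjusted p of 0.05 (2.2% and 3.27% of all genes), and 22 were lower in each tumor alone (27.5% of all genes). The median was -0.16, but 0.01 with ERCC totals as library size and 0.07 in limma. *Mgp*, matrix Gla protein, had 5028 CPM in positive and 7702 in negative cells of tumor 1 and 5128 and 6941 in tumor 2 (-0.53 ± 0.08; edgeR adjusted p = 0.778). DESeq2 (-0.52) and limma (-0.44) called *Mgp*, whereas limma and edgeR on thinned cells (both -0.48) did not. The higher one was the laminin gene *Lama5* (1.48 ± 0.34). The collagen gene *Col1a2*, named after its values were seen, had 1972 against 3047 and 1667 against 2891 CPM (-0.71 ± 0.10), whereas *Sparc* differed by 0.07 ± 0.07. The M score, itself lower in positive cells, is also made of matrix genes, and its part in these values was not tested.

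Cell cycle genes had 7 of 15 higher and 0 lower at an unadjusted p of 0.05 (2.2% and 3.27% of all genes), with a median of 0.74, which was -0.13 without cycling cells, 0.28 in limma, 0.33 in limma on thinned cells and 0.46 without cells with reads of 2 epithelial genes. Cycling cells, with a mean log2(RPKM + 1) of at least 2 over the list, were 7 of 47 positive against 23 of 209 negative cells in tumor 1 (14.9% and 11%) and 9 of 51 against 20 of 172 in tumor 2 (17.6% and 11.6%). The same list chose these cells, so its median and the values of its genes without them are no independent check. *Ccna2* had 169 against 120 and 251 against 121 CPM, with 37.6% and 65.1% of the positive-class reads in 1 cell, and its log2 difference of 0.78 was 0.04 without cycling cells. *Pcna* had 72.6 against 92.2 and 104 against 70.5. Immediate early genes had 1 higher and 1 lower of 17 (median -0.06, but 0.47 in limma), the higher being *Myc* (0.83 ± 0.24) and the lower *Egr2* (-0.68 ± 0.24), with *Fos* at 0.13 ± 0.08 and *Egr1* at -0.17 ± 0.10. Hypoxia and glycolysis genes had 3 of 15 higher and 0 lower (2.2% and 3.27% of all genes), and their median was -0.06 in tumor 1 and 0.70 in tumor 2. The 3, named after their values were seen, were *Ndrg1* (2.11 ± 0.57), *Ankrd37* (1.15 ± 0.41) and *Pfkl* (0.91 ± 0.25), while *Ldha* (0.15 ± 0.16) and *Aldoa* (0.05 ± 0.17) did not pass.

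**Figure D4:**
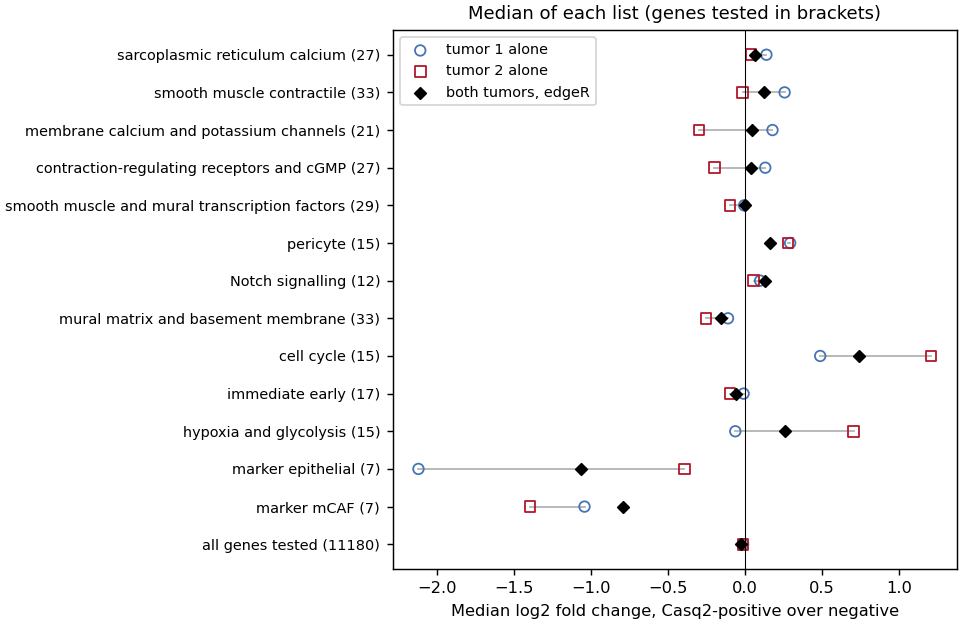
Median log2 fold change, *Casq2*-positive over *Casq2*-negative, of each list with at least 5 genes tested, in tumor 1 (circles), tumor 2 (squares) and both (diamonds). The cell cycle list stands at 0.74 and the 2 tumors of the epithelial list (7 genes tested) at -2.12 and -0.39, beside -0.03 for all genes. The epithelial median was -0.077 in limma and -0.041 in limma on thinned cells.

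Markers of other cell types varied in level between lists. The endothelial list had median summed levels of 469 and 624 RPKM in positive and 354 and 374 RPKM in negative cells of tumors 1 and 2, without reads of *Pecam1*, *Cdh5* or *Sox17*. The adipocyte list had 419 and 244 against 332 and 271 RPKM, and the matrix CAF list 29.6 and 57.5 against 63.9 and 101 RPKM. The epithelial list had 0 and 24.3 against 0 and 28.7 RPKM. Of 12 epithelial genes, 5 and 3 had no read in positive cells of tumors 1 and 2, and the summed level ran from 0 to 218 and from 0 to 433 RPKM in positive cells and from 0 to 308 and from 0 to 9447 in negative cells. In tumor 2, 18 of 51 positive and 39 of 172 negative cells had reads of at least 2 epithelial genes (35.3% and 22.7%), and in tumor 1 2 of 47 and 12 of 209. Without these cells no gene was called either. *Csn3* had 18.4 against 30.7 and 68.9 against 124 CPM, and *Krt18* 0 against 4.19 and 14.4 against 21.6.

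Myoepithelial *Igfbp2* had 0.374 against 3.53 and 0.160 against 7.22 CPM, with 86.6% of the negative-class reads of tumor 2 in 1 cell. Immune *Lyz2* had 0 CPM in positive cells of both tumors against 0.188 and 3.47 (75% and 70.4% of these reads in 1 negative cell), and *Fcer1g* had 0 against 0.118 and 14.8 against 1.24, the 14.8 from 1 cell. Striated muscle *Tnnt2* had 0 against 6.94 and 14 against 6.07 CPM. The striated muscle list had a mean summed level of 4.76 against 4.74 RPKM in tumor 1 and 18.2 against 5.6 RPKM in tumor 2, with no read of *Myh6*, *Myh7*, *Tnnt3*, *Tnni2* or *Myod1* in either class. Endothelial *Esam*, also made by mural cells, had 924 against 663 and 893 against 638 CPM (0.48 ± 0.12), and *Emcn* 93.2 against 120 and 259 against 170. Of the adipocyte list *Adipoq* had no read, *Fabp4* had 634 against 315 and 372 against 395 CPM, and *Lpl* 374 against 436 and 153 against 335. After thinning *Fabp4* was read in 93.6% of positive against 70.7% of negative cells of tumor 1 and in 76% against 68.8% of tumor 2. Limma called it higher (1.39), whereas limma on thinned cells (1.32) and DESeq2 (0.47) did not. A single positive cell held 25.2% of that class's *Fabp4* reads in tumor 1. None of 7 Schwann cell genes passed the filter on low values. Of 7 tested matrix CAF markers outside M, 4 were lower and 0 higher at an unadjusted p of 0.05, where 3.27% of all genes were lower and 2.2% higher (median -0.79, -0.15 in limma). *Mmp2* had 168 against 345 and 223 against 324 CPM and *Loxl1* 49.5 against 92.8 and 24 against 123, and the others, *Fbln2* and *Cxcl14*, differed by -2.49 ± 0.60 and -2.82 ± 1.08. Of developmental CAF markers, *Lcn2* had 12.5 against 12.3 and 74.3 against 124 CPM and *Trf* 3.27 against 6.3 and 32.9 against 83.4. In tumor 2 a single negative cell held 30.9% and 41.2% of the class's reads of these, and at least 2 genes of the developmental CAF list were read in 51% of positive against 32.6% of negative cells (8.51% against 8.61% in tumor 1). The part of these cells' RNA in the differences above was not tested beyond leaving out the wells with epithelial reads.

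The 10 genes whose log2(RPKM + 1) was most like that of *Casq2* were ranked by the lower of the Pearson correlations in 261 vCAF-like cells of tumor 1 and 235 of tumor 2. All were weak: *Cox4i2* led with r = 0.25 and 0.27, followed by *Impa2* (0.24 and 0.26), *Pla2g7* (0.23 and 0.29), *Cdh4* (0.32 and 0.21), *Gpcpd1* (0.21 and 0.22), *Tesc* (0.36 and 0.20), *Ptp4a3* (0.29 and 0.20), *Ldhb* (0.20 and 0.24), *Vangl1* (0.19 and 0.25) and *Itga7* (0.19 and 0.25). Cells share their plate and sequencing depth, and *Casq2* itself correlated with the log of depth by 0.11 and 0.14. These genes were chosen by this likeness in the same cells, so their differences between the classes are a description.

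After thinning, *Impa2*, an inositol monophosphatase, was read in 78.7% of positive and 54.5% of negative cells of tumor 1 and in 84% and 56.9% of tumor 2. *Cdh4*, R-cadherin, was read in 31.9% against 8.59% and 34% against 12.5%. *Tesc*, the calcium-binding tescalcin, was read in 21.3% against 2.02% and 12% against 2.5%. *Itga7*, a laminin receptor of muscle, was read in 100.0% against 87.9% and 96% against 76.2%, and *Ldhb* in 66% against 41.9% and 72% against 43.8%. *Vangl1*, a planar polarity gene, was read in 38.3% against 19.7% and 40% against 15%. In RefSeq, *Vangl1* (chromosome 3, 102153583 to 102204744) is the next protein-coding gene after *Casq2*, with 7068 bases between them, a position looked up after it appeared in the ranking.

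**Figure D5:**
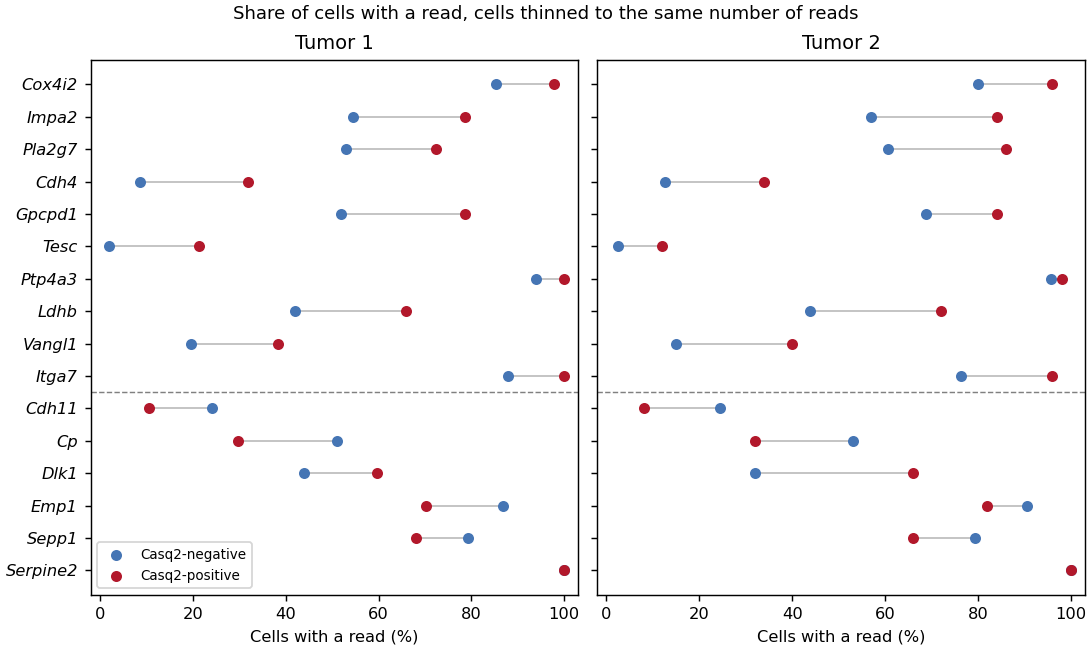
Percentage of *Casq2*-negative (blue) and *Casq2*-positive (red) cells with a read, after thinning, in tumor 1 (left) and tumor 2 (right), for the 10 genes most like *Casq2* (above the dashed line) and other described genes past the threshold in 4 alternative fits (below it). Shares of *Cdh4* were 31.9% against 8.59% in tumor 1, and every cell had a *Serpine2* read.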

How the data were processed

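Counts of reads per gene for 768 wells were deposited by the authors, with RPKM values made from them. Per the study's methods, the authors aligned single-end Smart-seq2 reads to mm10 with STAR and counted on RefSeq genes, and the deposited RPKM values are reads scaled to gene length and sequencing depth by rpkmforgenes. Smart-seq2 does not mark strand, so antisense overlaps cannot be told apart. Columns were matched to wells by name (0 columns unused). The tables hold 24490 endogenous genes and 92 spike-ins.

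The members, gene lists and tests were chosen with earlier results of these data known. Wells with at least 10000 endogenous reads and 1000 genes were kept, no doublet caller was run, and reads were summed per tumor and class into 4 libraries, since cells are not replicates. Testing was limited to genes averaging 1 RPKM or more in the compared cells and used edgeR 4.0.16 (R 4.3.3, TMM, glmQLFit and glmQLFTest, tumor as a block, Benjamini-Hochberg adjusted p under 0.05), adjusting without the 13 genes that define the classes. CPM values are of the summed libraries, after TMM. The SE is the log2 fold change divided by the root of F. The classes of each tumor share an animal, so libraries were paired, and their deviations from the class means correlated by r = 0.17 over 11193 genes.

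Named genes were up to 12 called genes a direction (filled to 5 by smallest p among genes read in at least 10 cells), up to 4 called members of each list or otherwise its 2 of highest mean RPKM, the 10 genes most like *Casq2* by Pearson r and the 13 defining genes; any other gene in the text was named after its values were seen. Alternatives were DESeq2 1.42.0, limma 3.58.1 on mean log2(RPKM + 1), other normalizations, filters, depths, thresholds and cells, and each tumor alone. Further ones were added after the data were seen: leaving out the cell with the most *Casq2* reads, and limma on thinned cells. Thinning to 58000 reads left out 11 and 12 negative cells and 0 and 1 positive cells. On simulated counts the test called no changed gene under the common dispersion, and it made calls only in a later simulation with larger changes and the trended dispersion. All 71 named genes were found in RefSeq (GRCm38.p6), which gave coordinates and the promoter. Some results are not reported here.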

Additional observations from a re-analysis of the deposited data

Results flagged for a closer look

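Reads of *Casq2* appeared in wells outside the comparison. One kept well of tumor 1 that was not vCAF-like held 76 *Casq2* reads, and 1 of tumor 2 held 99, more than the 3 counts that a count of 0 allows. The first had a V of 3.38, under the limit of 4, and an M of 0.28. The second had a V of 1.55 and an M of 9.22. No other kept well outside the vCAF-like cells had 5 or more reads. These wells entered neither class, and the cause was not tested.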

How the results depend on the processing

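The count of 0 called genes in each direction was unchanged in the other alternatives, but DESeq2 called 34 higher and 70 lower, limma 108 and 15, limma on thinned cells 38 and 13, and edgeR on thinned cells 8 and 12. ERCC totals and leaving out cycling cells each called 1 gene lower. Of the calls of DESeq2 (104) and limma (123), 25 were shared, 24% and 20.3% of each. The genes higher among those at an unadjusted p of 0.05 were 40.2% in the main fit, 66.3% with ERCC totals, 86.5% in limma and 75.8% in limma on thinned cells, where the median of all genes stood at 0.14, 0.13 and 0.11. Without the block (no replicate block) 0 genes were called, and the pairing changed no call. A tumor left alone gives values without a test. In a negative cell of median depth, a count of 0 allowed 15.2 and 16.9 CPM of a gene.

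The share of *Casq2*-positive cells was 19.9% as the mean of the tumors, 23.4% with at least 1 read and 22.7% with at least 1 read after thinning. It ran from 18 to 21.7% with each tumor alone. Of 260 list medians 216 stayed within 1 SD of the 2 tumor medians of the same list. This SD is narrow where the tumors were close (pericyte, 0.28 and 0.29) and wide where they were not (epithelial, -2.12 and -0.39). The epithelial median of -0.077 in limma counted as within it, beside -1.06 in the main fit. Staying within this SD is therefore no measure of stability. The medians outside it are grouped by setting. ERCC totals gave sarcoplasmic reticulum 0.23, transcription factors 0.16, pericyte 0.33, Notch 0.29, matrix 0.0096 and immediate early 0.10. Limma gave 0.17, 0.18, 0.48, 0.18, 0.071 and 0.47 for these, and -0.15 for matrix CAF markers. Limma on thinned cells gave 0.17, 0.26 and 0.60 for the first 3, -0.025 for matrix, 0.39 for immediate early and -0.18 for matrix CAF markers. The pericyte median was 0.10 on thinned cells, 0.11 without cycling cells, 0.11 without cells with 2 epithelial genes, 0.20 at like depth, 0.15 without a filter, 0.15 without the cell with the most *Casq2* reads and 0.17 without the replicate block. The Notch median was 0.081 on thinned cells, 0.064 with equal totals, 0.062 at 1 *Casq2* read and 0.17 without epithelial reads. Without epithelial reads sarcoplasmic reticulum was -0.011, immediate early -0.21 and matrix CAF markers -1.30. Cell cycle was -0.13 without cycling cells, immediate early 0.014 at 1 read, and transcription factors -0.075 under the stricter V. With each tumor alone the medians ran from 0.037 to 0.14 (sarcoplasmic reticulum), -0.016 to 0.26 (contractile), -0.30 to 0.18 (channels), -0.20 to 0.13 (receptors), -0.098 to -0.0059 (transcription factors), 0.28 to 0.29 (pericyte), 0.056 to 0.098 (Notch), -0.25 to -0.11 (matrix), 0.49 to 1.21 (cell cycle), -0.097 to -0.0099 (immediate early), -0.063 to 0.70 (hypoxia), -2.12 to -0.39 (epithelial) and -1.40 to -1.04 (matrix CAF).

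Of 58 named genes 22 changed sign in at least 1 setting, tumors alone included. In limma these were *Cxcl10* (0.074), *Calr* (0.24), *Myl9* (-0.21), *F2r* (0.24), *Mcam* (0.067), *Egr1* (0.60), *Tnnt2* (0.029), *Lcn2* (0.16) and *Trf* (0.054). Limma on thinned cells gave *Calr* 0.061, *Myl9* -0.33, *F2r* 0.26, *Egr1* 0.57, *Aldoa* -0.17 and *Lcn2* 0.059. ERCC totals gave *Calr* 0.14, *Prrx1* 0.16, *Mcam* 0.016 and *Pdgfrb* 0.034. *Calr* was 0.033 on thinned cells and 0.088 with equal totals. Without cycling cells *Ube2c* was -7.49, *Acta2* -0.046 and *Myl9* -0.075. Without epithelial reads *Cxcl10* was 0.60, *Acta2* -0.12, *Myl9* -0.30, *Fcer1g* -3.64 and *Lcn2* 0.19. At like depth *Acta2* was -0.033, *Myl9* -0.10, *Sparc* -0.0019, *Pcna* -0.054 and *Lcn2* 0.48. *Myl9* was -0.0035 without a filter, -0.022 at 1 and -0.021 at 10 *Casq2* reads and -0.036 without the cell with the most reads, where *Prrx1* was 0.036. *Tnnt2* was 0.10 without the block. The cause of these changes was not tested.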
